A study of Mus musculus with 6 samples.

Results

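The genes described here are the 47 genes of the autophagy machinery and of its TFEB family regulators, taken from a fixed list of gene symbols, among the 12288 genes tested in RNA-seq of 4T1 cells. 4T1 is an established mouse line of triple-negative mammary carcinoma. One group of 3 libraries came from cells given DMSO, the solvent control, and the other group of 3 libraries came from cells given 10 µM P3FI-90, both for 24 h. The study describes P3FI-90 as a selective inhibitor of KDM3B, an enzyme that removes methyl groups from lysine 9 of histone H3. No genotype or knockdown differed between the groups, so that the inhibitor was the only labelled difference. All 47 symbols were found in the table and all 47 passed the filter on low counts. The labels do not say that the 3 libraries of a group came from separate cultures, so the p-values measure the spread between these libraries, which may be technical.

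Autophagy delivers cytoplasmic material to lysosomes in a double-membraned vesicle, the autophagosome. The ULK kinase complex starts the process, a class III phosphatidylinositol 3-kinase complex marks the site with lipid, and the lipid transfer protein ATG2 and the scramblase ATG9 feed the growing membrane, which is called the phagophore. A conjugation system related to ubiquitination then attaches the ATG8 proteins, the LC3 and GABARAP families, to the membrane, where they bind cargo receptors such as p62. The vesicle is finally tethered to a lysosome and fuses with it. TFEB, TFE3 and MITF are related transcription factors that activate lysosomal and autophagy genes when nutrient signalling through mTORC1 at the lysosome is low, a control that acts largely on their phosphorylation and their place in the cell rather than on their mRNA.

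The libraries held 31327094 to 37395732 counts on named genes. All 8 epithelial markers examined had over 100 counts in every library, and their summed level was 3410 to 3580 CPM (counts scaled to library size) with DMSO and 1770 to 1850 with P3FI-90, with all 8 called lower. Summed markers of other cell types were lower than these. Those of leukocytes were 11.4 to 14.2 CPM with DMSO and 11.6 to 14.7 with P3FI-90 (1 of 8 at 0 in every library), those of fibroblasts 40.3 to 42.5 and 28.6 to 31.3 (2 of 8 at 0), and those of endothelium at most 0.961 in any library (1 of 5 at 0). Only 1 of 8 leukocyte markers (Cd68), 1 of 8 fibroblast markers (Pdgfra) and 0 of 5 endothelial markers had over 100 counts in every library. Of these 21 markers, Csf1r (log2 fold change 1.56, edgeR adjusted p = 2e-04) and Pecam1 (2.10, adjusted p = 0.0355, at 0 to 27 counts per library) were called higher and Pdgfra (−0.50, adjusted p = 4.12e-06) lower. Pecam1 had 0, 0 and 13 counts with DMSO and passed the filter on low counts only because of the P3FI-90 libraries. In bulk RNA, fewer cells of a type and less RNA per cell cannot be told apart. The part of these markers in the values below was not tested. Kdm3b itself, the gene of the inhibited enzyme, stood at 2851 ± 67.4 normalized counts with DMSO and 3109 ± 55.7 with P3FI-90 (SD, n = 3 libraries), a log2 fold change of 0.13 (edgeR adjusted p = 0.0169).

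Of the 47 members, 28 were higher after P3FI-90 treatment, 8 were lower and 11 passed in neither direction by edgeR's quasi-likelihood test at an adjusted p under 0.05. Over all genes tested the share called was 79.3%, with 39.9% higher and 39.4% lower, and among the members it was 76.6%, with 59.6% higher and 17.0% lower. A called rise of more than 1 on the log2 scale was seen for 8 members (17.0%, against 12.7% of all genes), and a called fall of that size for 0 members (against 10.6% of all genes). The groups did not overlap for 38 members, 29 of them higher and 9 lower. Over all genes, 81.2% did not overlap, 41.0% higher and 40.2% lower. The members' median log2 fold change was 0.25, beside 0.01 over all genes tested, and their range was −0.63 to 2.37.

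The size of these counts depended on the scaling between libraries. With libraries scaled by total counts in place of TMM, the median of all genes moved to 0.23, the calls over all genes were 62.9% higher in place of 50.3%, and 35 members were called higher and 7 lower. The members' median moved to 0.46. A change of scaling shifts all genes alike, so the members' median stayed 0.23 above that of all genes by construction. This gap was 0.14 with no filter on low counts and 0.17 to 0.26 with 1 library left out. Gene length also moved with the response: in 4 bins of the genes tested, from the shortest to the longest, the median log2 fold change was −0.26, −0.08, 0.06 and 0.25, and 19 of the 47 members lay in the bin of the longest genes. With the trend on length removed, an alternative chosen after seeing the data, the members' median was 0.12.

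**Figure D1:**
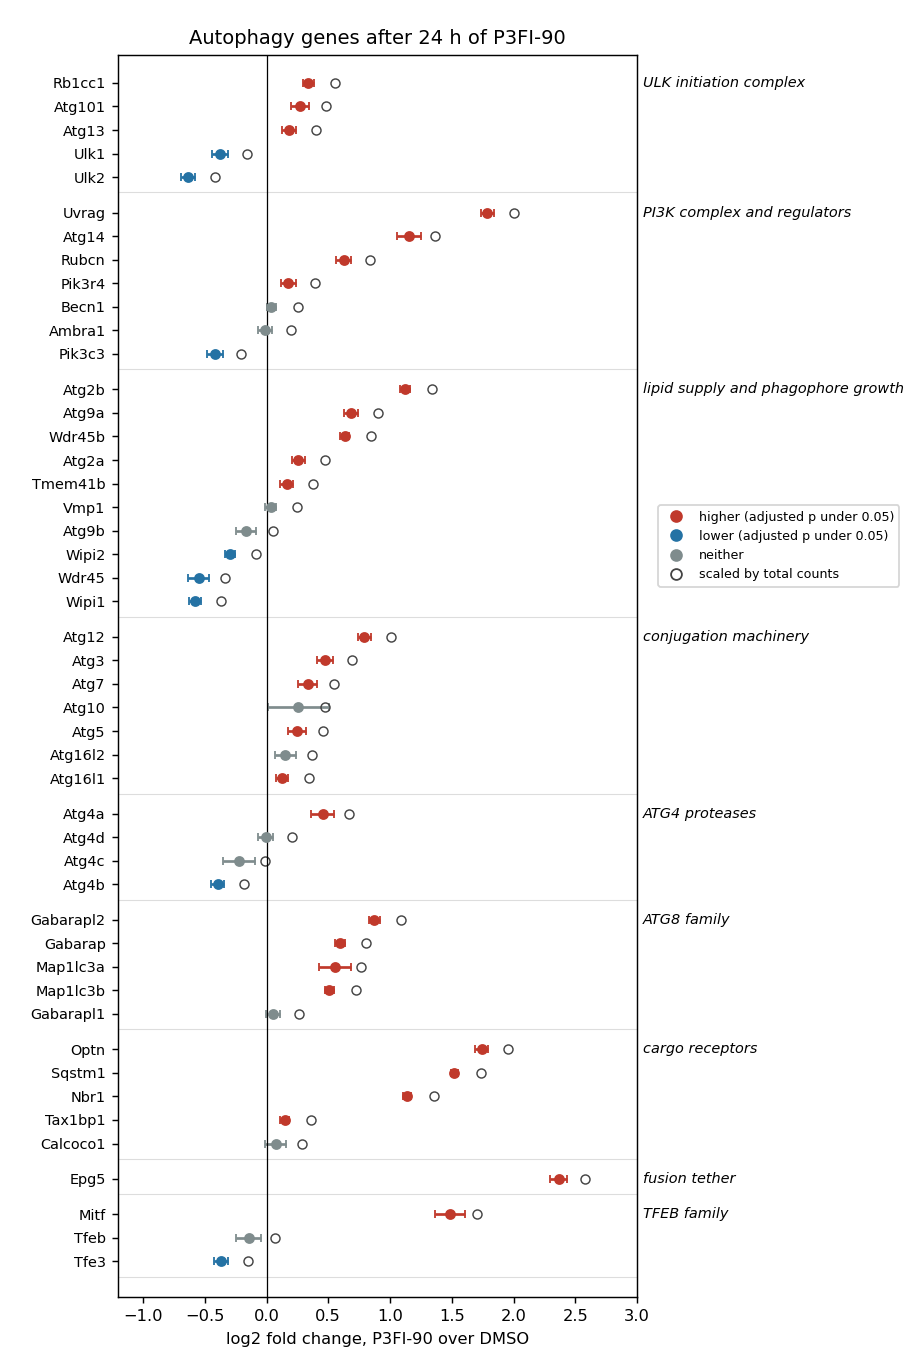
Log2 fold change of each of the 47 members (horizontal axis, P3FI-90 over DMSO, n = 3 libraries per group), grouped by role; filled points show TMM scaling with bars of 1 standard error, coloured by call, and open circles show scaling by total counts. Epg5, Uvrag, Optn, Sqstm1 and Mitf lie farthest to the right and Ulk2 farthest to the left at −0.63, and every open circle lies to the right of its filled point.

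Among role groups of more than 1 gene, the cargo receptors had the highest median log2 fold change, 1.14, and 4 of its 5 members were higher. Sqstm1 (ENSMUSG00000015837), which encodes p62, the receptor that carries ubiquitinated cargo to LC3, had 11388, 11251 and 11612 normalized counts in the DMSO libraries and 32572, 33582 and 32141 in the P3FI-90 libraries. Every treated library was thus far above every control library. The log2 fold change of Sqstm1 was 1.52 with a standard error of 0.030 (2.87-fold, adjusted p = 2.74e-14). Its neighbour Mrnip overlaps 17.3% of its exon bases on the opposite strand, and the strandedness of the libraries is not given in the sources used here. Mrnip had 264 ± 34.9 and 552 ± 11.3 normalized counts, a small part of the Sqstm1 level.

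Optn (ENSMUSG00000026672) encodes optineurin, a receptor for damaged mitochondria and bacteria. It had 1024, 989 and 1019.6 normalized counts with DMSO and 3252, 3545 and 3360.1 with P3FI-90, again without overlap. The log2 fold change was 1.74 ± 0.053 (SE), or 3.35-fold (adjusted p = 1.35e-12). Nbr1, a receptor related to p62 and active with it in aggregate clearance, rose from 4689 ± 48.9 to 10329 ± 64.6 normalized counts (log2 fold change 1.14, adjusted p = 7.12e-13). Tax1bp1, a further ubiquitin-binding receptor, had a log2 fold change of 0.15 (adjusted p = 0.00231), which turned to −0.18 with the length trend removed. Calcoco1, an endoplasmic reticulum receptor, had 0.07 (adjusted p = 0.431) with overlapping groups, and was called higher with total-count scaling (0.29, adjusted p = 0.00597). Per kilobase of exon, Sqstm1 was the most abundant receptor in both groups, with 3400 ± 54.3 normalized counts per kb with DMSO and 9760 ± 220 with P3FI-90, and Optn moved from 269 ± 5.12 to 902 ± 39.6.

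The single member of the fusion step, Epg5 (ENSMUSG00000039840), had the largest change of the 47. It encodes a large tether that links autophagosomes to late endosomes and lysosomes. It had 937, 820.2 and 1028 normalized counts in the DMSO libraries and 4573, 4939 and 4869 in the P3FI-90 libraries. The lowest treated library was more than 4 times the highest control library. The log2 fold change was 2.37 with a standard error of 0.070 (5.15-fold, adjusted p = 1.01e-12), and it lay between 2.28 and 2.58 under all 14 alternatives.

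Of the 5 ATG8 family genes, 4 rose and Gabarapl1 did not pass, with a group median of 0.55. The products are ubiquitin-like proteins that are anchored in the autophagosome membrane, where LC3 proteins serve membrane growth and cargo binding and GABARAP proteins also serve closure and fusion. Gabarapl2 had the largest change, from 3398, 3282 and 3199 normalized counts to 6316, 5726 and 6066, which gave 0.87 ± 0.043 on the log2 scale (SE, edgeR adjusted p = 1.73e-10). Gabarap had 4634, 4870.4 and 4356 with DMSO and 6919.6, 6977 and 7017 with P3FI-90 (log2 fold change 0.59 ± 0.041, adjusted p = 7.58e-09). Both genes were without overlap between groups.

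Map1lc3b, the gene of the LC3B protein used as the common marker of autophagosomes, had 4332, 4537 and 4505 normalized counts with DMSO and 6407, 6441 and 6194 with P3FI-90. Its log2 fold change was 0.51 ± 0.036 (SE, adjusted p = 8.67e-09). Map1lc3a, which encodes LC3A, was much lower, at 272, 269.8 and 219 against 334, 379 and 403, and rose by 0.55 ± 0.13 (adjusted p = 0.0013). Gabarapl1 had 1627, 1519 and 1666 normalized counts with DMSO and 1689, 1569 and 1735 with P3FI-90, so that its groups overlapped (log2 fold change 0.05 ± 0.057, adjusted p = 0.41). With total-count scaling the value of Gabarapl1 was 0.27 (adjusted p = 0.000633), a call in the same direction as the other 4.

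On a per-length scale Gabarap was the most abundant ATG8 gene, at 2510 ± 140 normalized counts per kb of exon with DMSO and 3780 ± 26.5 with P3FI-90. Gabarapl2 followed at 1420 ± 43.1 and 2600 ± 127, then Gabarapl1 at 797 ± 37.9 and 827 ± 42.5, Map1lc3b at 593 ± 14.6 and 844 ± 17.8, and Map1lc3a at 215 ± 25.2 and 315 ± 29.5. On this scale Gabarapl1 stood above Map1lc3b with DMSO, whereas after treatment the 2 genes differed by less than the spread between libraries. That order depends on merged exon lengths, which join all annotated exons, 7517 bases for Map1lc3b and 2013 for Gabarapl1. Before division by length, Map1lc3b had 4458 ± 110 and 6347 ± 134 normalized counts, above Gabarapl1 at 1604 ± 76.2 and 1664 ± 85.6. The lengths of the expressed transcripts were not determined. Of the sequence windows of 50 bases in the Gabarapl2 transcripts, 12.2% are shared with other transcripts, mainly of the pseudogene Gm3724. Of the Gabarapl1 exon bases, 28.3% lie opposite 1700101I11Rik. Neither of these genes is a row of the table.

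**Figure D2:**
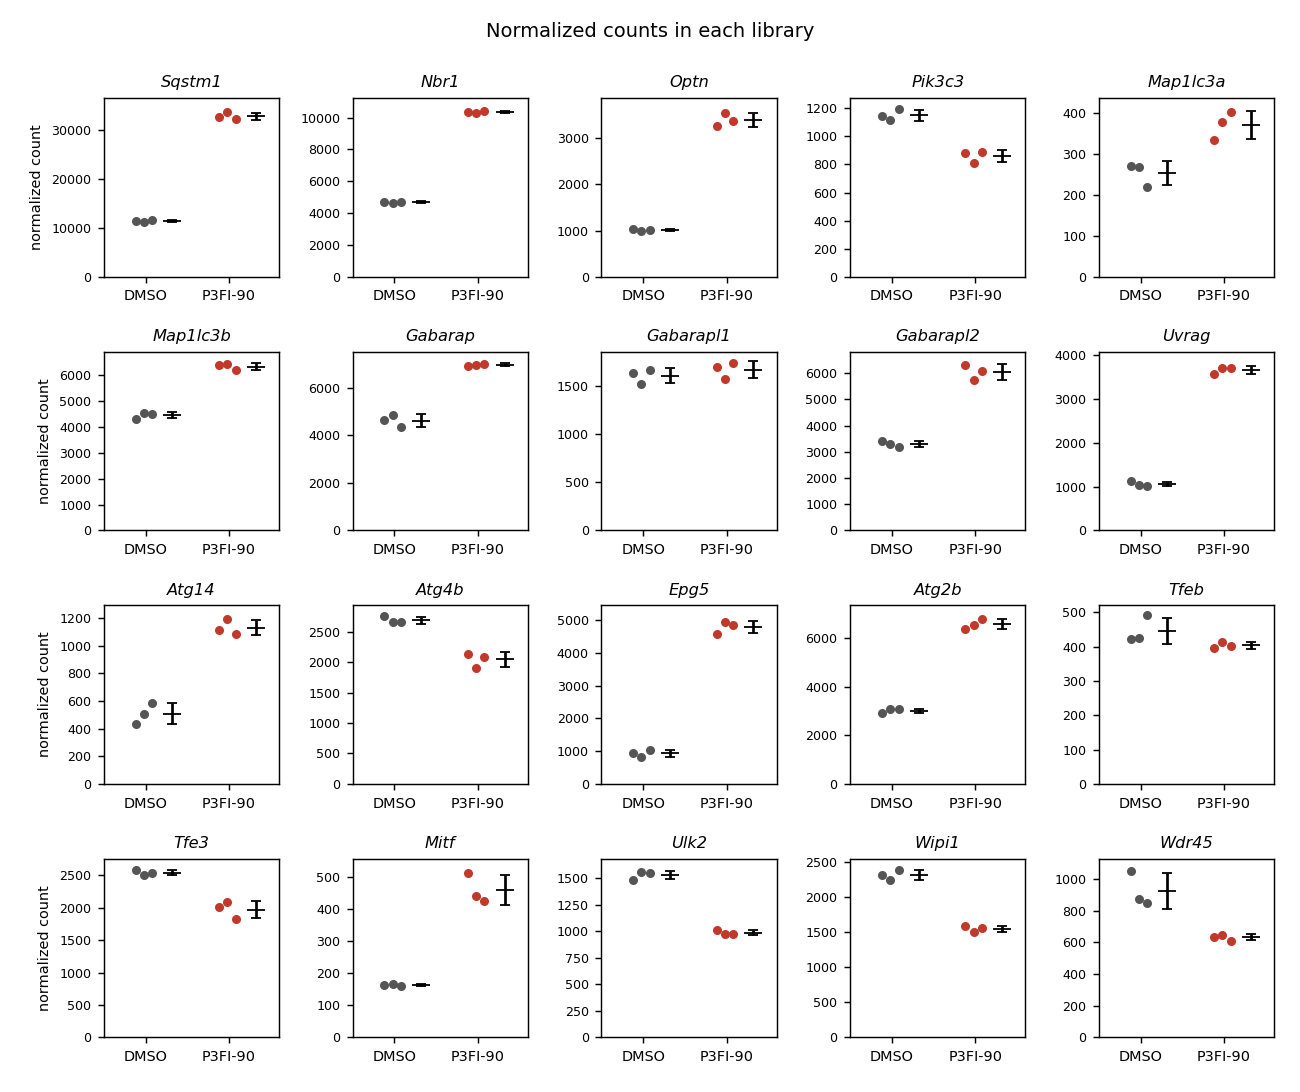
Normalized counts (vertical axes, starting at 0) of 20 members in each of the 3 DMSO and 3 P3FI-90 libraries, 1 panel per gene; points are libraries and bars are the mean ± SD. The panels of Epg5, Optn, Sqstm1, Uvrag and Mitf show wide gaps between groups, that of Gabarapl1 shows groups that overlap, that of Tfeb shows groups only narrowly apart, and Ulk2, Wipi1, Wdr45, Pik3c3 and Atg4b are lower in every treated library.

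The conjugation genes, which attach ATG8 proteins to lipid, moved in 1 direction where they passed: 5 of 7 were higher, 0 were lower and the median was 0.26. Atg12, the ubiquitin-like protein that is joined to ATG5, rose most, from 1290.3 ± 55.1 to 2232 ± 80.7 normalized counts (log2 fold change 0.79 ± 0.053 SE, adjusted p = 5.5e-09). The E2-like enzyme gene Atg3 rose by 0.47 (adjusted p = 1.45e-05), the E1-like Atg7 by 0.34 (adjusted p = 0.00105), and Atg5 by 0.25 (adjusted p = 0.00592). Atg16l1, which brings the conjugate to the membrane, had 0.13 (adjusted p = 0.0288). That call was lost with upper-quartile scaling (adjusted p = 0.114), with no filter on low counts (0.0582), and when DMSO library 2 (0.0679), DMSO library 3 (0.116), P3FI-90 library 1 (0.108) or P3FI-90 library 3 (0.0893) was left out, and the value turned to −0.19 with the length trend removed. Atg16l2 (0.15, adjusted p = 0.117) and the E2-like Atg10 (0.26, adjusted p = 0.353) did not pass. Atg16l2 was called higher with total-count scaling (0.37, adjusted p = 0.00125), and its value was −0.12 with the length trend removed. Atg10 was the least abundant member, at 81.0 ± 22.3 normalized counts with DMSO.

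The ATG4 proteases trim ATG8 proteins before conjugation and release them from membranes afterwards, and their genes differed in direction. Atg4b (ENSMUSG00000026280), which encodes the protease most active on LC3, had 2757, 2665 and 2657 normalized counts with DMSO and 2136, 1912 and 2094 with P3FI-90. All treated libraries were below all controls (log2 fold change −0.40 ± 0.053 SE, adjusted p = 9.9e-06). Atg4a rose from 448 ± 37.0 to 615 ± 39.2 (0.45 ± 0.094, adjusted p = 0.000507). Of the Atg4a sequence windows, 51.2% are shared with other transcripts, mainly of the pseudogene Atg4a-ps, which itself had 18 to 44 counts per library. Atg4c (−0.22, adjusted p = 0.137) and Atg4d (−0.01, adjusted p = 0.919) did not pass. Without P3FI-90 library 3, Atg4c was called lower (−0.38, adjusted p = 0.0144). With total-count scaling Atg4d turned to 0.21 (adjusted p = 0.00759), and 19.3% of its exon bases lie opposite Kri1.

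In the ULK initiation complex the kinase genes and the genes of the other subunits moved in opposite directions, 3 higher and 2 lower of 5. Ulk2 had the largest fall of the 47, from 1482, 1556 and 1551 normalized counts to 1016, 972 and 972 (log2 fold change −0.63 ± 0.057 SE, adjusted p = 1.23e-07). Ulk1, the related kinase, had 1427, 1485 and 1466 with DMSO and 1236, 1066 and 1076 with P3FI-90 (−0.37 ± 0.066, adjusted p = 0.000124). Both kinases were below every control in every treated library. The scaffold gene Rb1cc1, which encodes FIP200, rose from a mean of 2471 to a mean of 3126 (0.34 ± 0.046, adjusted p = 1.09e-05), Atg101 rose by 0.27 (adjusted p = 0.00484) and Atg13 by 0.18 (adjusted p = 0.00715). With the length trend removed, the value of Rb1cc1 was −0.12.

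Of the 7 genes of the class III phosphatidylinositol 3-kinase complex and its regulators, 4 were higher, 1 was lower and 2 passed in neither direction. Pik3c3, the catalytic subunit VPS34, had 1146, 1113 and 1191 normalized counts with DMSO and 879.6, 810.1 and 891 with P3FI-90 (−0.42 ± 0.066, adjusted p = 4.26e-05). Uvrag (ENSMUSG00000035354), which defines the form of the complex on late endosomes, had 1118, 1045 and 1013 with DMSO and 3558, 3707 and 3708 with P3FI-90. The groups were far apart, with a log2 fold change of 1.79 ± 0.054 (3.45-fold, adjusted p = 1.23e-12). On the opposite strand, Gm45187, which is no row of the table, covers 17.6% of the Uvrag exon bases.

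Atg14, which directs the complex to the site of phagophore formation, also rose, from 508 ± 77.4 to 1131 ± 56.3 normalized counts (1.15 ± 0.098 SE, adjusted p = 6.75e-08). Rubcn, an inhibitor of the UVRAG-containing complex, rose from 2072 ± 167 to 3196 ± 152 (0.62, adjusted p = 3.33e-07). Beclin 1, encoded by Becn1, is the shared regulatory subunit. Its gene had 0.04 (adjusted p = 0.369), and 43.9% of its exon bases lie opposite Cntd1, which had 1 to 28 counts per library. Ambra1, a Beclin 1 regulator, had −0.01 (adjusted p = 0.839). With total-count scaling both were called higher, Becn1 at 0.25 (adjusted p = 3.09e-05) and Ambra1 at 0.20 (adjusted p = 0.00293). Pik3r4, the regulatory subunit VPS15, had 0.18 (adjusted p = 0.0149), a call that was lost without DMSO library 2 (adjusted p = 0.061) or without P3FI-90 library 1 (adjusted p = 0.0735). Its value turned to −0.14 with the length trend removed, and that of Becn1 to −0.17.

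Among the 10 genes of lipid supply and phagophore growth, 5 were higher and 3 lower, with a median of 0.10. Atg2b, a lipid transfer protein gene, rose from 3019 ± 80.9 to 6573 ± 217 normalized counts (log2 fold change 1.12 ± 0.039 SE, adjusted p = 4.62e-12), whereas its paralog Atg2a rose by 0.26 (adjusted p = 0.000446). The scramblase gene Atg9a rose from 1737 ± 139 to 2795 ± 84.1 (0.68, adjusted p = 9.79e-08). For Atg9a, 30.2% of the sequence windows are shared with other transcripts, among them Gm29253, which is no row of the table. Atg9b had −0.17 (adjusted p = 0.0782). It was called lower without DMSO library 2 (−0.25, adjusted p = 0.00743) and with upper-quartile scaling (−0.20, adjusted p = 0.0345). Of the endoplasmic reticulum scramblases, Tmem41b rose by 0.16 (adjusted p = 0.00939) and Vmp1 had 0.03 (adjusted p = 0.471), which was a call with total-count scaling (0.25, adjusted p = 9.9e-05). With the length trend removed, the values of Atg2a and Tmem41b were each 0.02, that of Atg2b was 0.69 and that of Atg9a 0.54.

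The 4 genes of the WIPI family, whose proteins read the phosphoinositide mark, did not move together. Wipi1 had 2313, 2244 and 2381 normalized counts with DMSO and 1591, 1499 and 1556 with P3FI-90 (−0.58 ± 0.050 SE, adjusted p = 8.54e-08). Wdr45, which encodes WIPI4, fell from 1051, 873 and 847 to 635, 648 and 610.3 (−0.55 ± 0.088, adjusted p = 5.06e-05). Both were lower in every treated library than in any control. For Wdr45, 16.9% of the windows are shared, mainly with Gm45208, which had 0 to 29 counts per library. Wdr45b, which encodes WIPI3, rose from 3887 ± 108 to 6038 ± 140.0 (0.64 ± 0.037, adjusted p = 1.06e-09). Wipi2, which recruits ATG16L1, had 4455 ± 87.6 and 3628 ± 135 normalized counts (−0.30, adjusted p = 1.09e-05), and this call was lost with total-count scaling (−0.08, adjusted p = 0.08).

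The 3 TFEB family genes each gave a different call. Mitf (ENSMUSG00000035158), best known as the master regulator of melanocytes, had 163, 167 and 161 normalized counts with DMSO and 512, 441 and 426 with P3FI-90. The groups were apart by more than 2-fold in every pair of libraries, and the log2 fold change was 1.49 ± 0.12 SE (2.8-fold, adjusted p = 4.78e-08). Tfe3 (ENSMUSG00000000134) had 2584, 2509.9 and 2530.1 with DMSO and 2013, 2081 and 1821 with P3FI-90, lower in every treated library (−0.37 ± 0.056, adjusted p = 3.16e-05). It was called lower under all 14 alternatives, at −0.41 to −0.15. Tfeb (ENSMUSG00000023990) had 422, 426 and 491 with DMSO and 396, 414 and 402 with P3FI-90. The treated libraries all lay below the control libraries by a margin that did not pass (−0.15 ± 0.10, adjusted p = 0.196), and with total-count scaling the sign turned to 0.07.

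Per kilobase of exon, Tfe3 was the most abundant of the family in both groups, at 274 ± 4.11 normalized counts per kb with DMSO and 213 ± 14.5 with P3FI-90. Tfeb stood at 78.7 ± 6.81 and 71.2 ± 1.6, and Mitf at 26.4 ± 0.513 and 74.2 ± 7.4. Mitf was thus below Tfeb with DMSO, and with P3FI-90 the levels of the 2 genes differed by less than their spread. The remaining relative, Tfec, had 0 counts in all 6 libraries. The table gives counts per gene, so isoforms of Mitf were not separated. Levels per kilobase thus depend on merged exon lengths, 6196 bases for Mitf and 5669 for Tfeb. Before division by length, Mitf had 460 ± 45.9 and Tfeb 404 ± 9.08 normalized counts with P3FI-90.

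To compare related members directly, the log2 ratio of their raw counts was taken within each library for 12 pairs and compared between groups. A ratio within a library does not depend on the scaling between libraries. The groups did not overlap for 9 pairs and overlapped for 3. As single genes, 81.2% of all genes tested did not overlap between groups. Ratios of unrelated genes were not computed, so nothing particular to related genes is read from this count. With 3 libraries against 3, no pair could pass a two-sided exact permutation test, whose smallest p is 0.1, and the 9 pairs reached this value (adjusted over 12 pairs, 0.133). Wdr45 over Wdr45b changed most: the log2 ratio was −2.08 ± 0.13 (SD, n = 3) with DMSO and −3.26 ± 0.017 with P3FI-90. Atg2a over Atg2b moved by −0.86, Gabarapl1 over Gabarapl2 by −0.82, Atg4a over Atg4b by 0.85 and Atg9a over Atg9b by 0.85. The moves were smaller for Wipi1 over Wipi2 (−0.28), Gabarap over Gabarapl2 (−0.28), Ulk1 over Ulk2 (0.26) and Tfeb over Tfe3 (0.23).

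The 3 pairs with overlap were Map1lc3a over Map1lc3b, Atg4c over Atg4d, and Atg16l1 over Atg16l2. Their moves were 0.04 (exact permutation p = 0.8), −0.22 (p = 0.2) and −0.03 (p = 0.9). The sign for Map1lc3a over Map1lc3b turned to −0.07 without DMSO library 3 and to −0.04 without P3FI-90 library 3, and that for Atg16l1 over Atg16l2 turned to 0.05 without DMSO library 2.

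**Figure D3:**
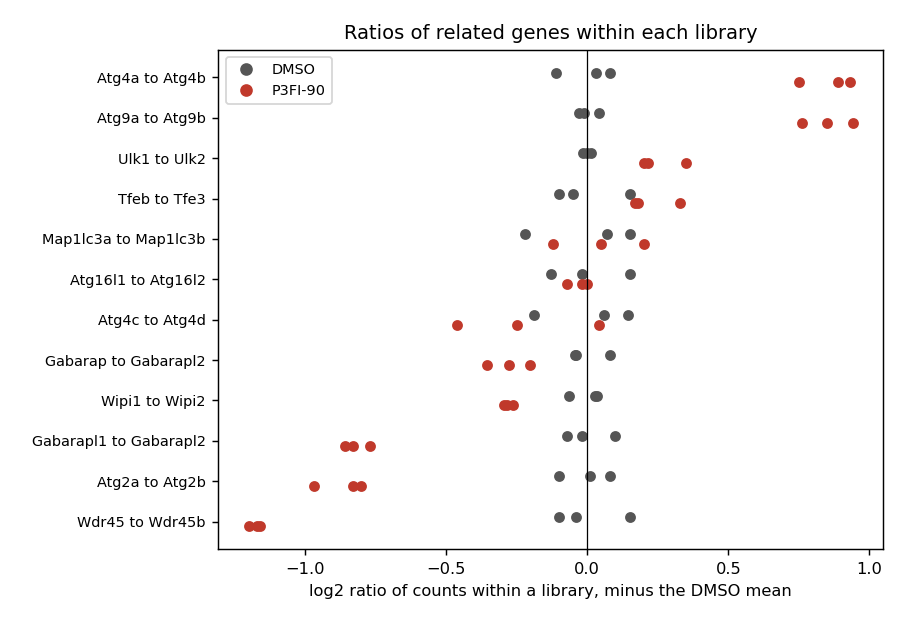
Log2 ratio of the counts of 2 related members within each library, minus the mean ratio of the DMSO libraries (horizontal axis), for the 12 pairs; points are the 3 DMSO and 3 P3FI-90 libraries. The groups are apart in 9 pairs, widest for Wdr45 over Wdr45b (−1.18 on average), and mixed for Map1lc3a over Map1lc3b, Atg4c over Atg4d and Atg16l1 over Atg16l2.

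The other genes of the pathway were described from 4 further lists, which share 4 genes among them. Over all genes tested, 39.9% were called higher and 39.4% lower, and the length trend was not removed for these lists. Of the genes that sense nutrients and energy upstream of ULK and TFEB, 35 of 38 were tested. Of those tested, 19 (54.3%) were higher and 10 (28.6%) lower, with a median of 0.26. The largest rises were in Fnip1, from 1783 ± 93.8 to 13915 ± 577 normalized counts (log2 fold change 2.96 ± 0.047 SE, adjusted p = 3.23e-15), and in Flcn, from 1217 ± 44.2 to 5672 ± 103 (2.22 ± 0.045, adjusted p = 3.42e-14). Their products, folliculin and its partner FNIP1, form a complex that acts on the Rag GTPases at the lysosome and through them on the phosphorylation of TFEB and TFE3 by mTORC1. The largest falls were in Deptor, an mTOR-binding protein, from 2245 ± 150.1 to 817 ± 19.3 (−1.46, adjusted p = 2.92e-11), and in Rraga, which encodes the RagA GTPase, from 3286 ± 53.8 to 1504 ± 111 (−1.13, adjusted p = 2.43e-10).

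All 17 genes of autophagosome-lysosome fusion were tested, and 9 (52.9%) were higher and 3 (17.6%) lower (median 0.15). Arl8b, a GTPase of lysosome transport, had the largest rise (1.17, adjusted p = 2.3e-12) before the SNARE gene Ykt6 (0.96, adjusted p = 6.58e-11). The largest falls were in Rab2a (−1.06, adjusted p = 3.81e-11) and in the SNARE gene Vamp8 (−0.44, adjusted p = 7.84e-06). Of the other selective autophagy receptors and regulators, 20 of 22 were tested, 12 (60%) were higher and 6 (30%) lower (median 0.26). Tollip (1.17, adjusted p = 6.93e-12) and the reticulophagy receptor gene Retreg1 (1.09, adjusted p = 2.67e-11) rose most, and the mitochondrial genes Phb2 (−1.05, adjusted p = 1.35e-11) and Fundc1 (−0.97, adjusted p = 6.86e-09) fell most.

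Of the lysosomal and other genes known to respond to TFEB, 32 of 36 were tested. Of those tested, 21 (65.6%) were higher and 6 (18.8%) lower, with a median of 0.47, beside 39.9% and 39.4% of all genes. In this list 10 rose by more than 1 on the log2 scale and 0 fell by that much. Over all genes tested, 12.7% rose and 10.6% fell by that much. Gpnmb, a lysosome-related glycoprotein gene, rose from 17.0 ± 9.12 to 1365 ± 57.4 normalized counts (log2 fold change 6.28 ± 0.17 SE, adjusted p = 5.9e-13). Its raw counts with DMSO were 25, 6 and 18, near the floor, and it passed the filter on low counts only because of the P3FI-90 libraries. Flcn, which this list also holds, had the next largest rise. The cathepsin genes Ctsb (−0.40, adjusted p = 1.41e-08) and Ctsl (−0.39, adjusted p = 1.61e-08) fell most. With total-count scaling the counts of this list were 26 higher and 2 lower. Those of the sensing list were then 23 and 8, those of the fusion list 13 and 2, and those of the receptor list 14 and 3. Over all 12288 genes tested, 6179 were then higher and 3641 lower.

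**Figure D4:**
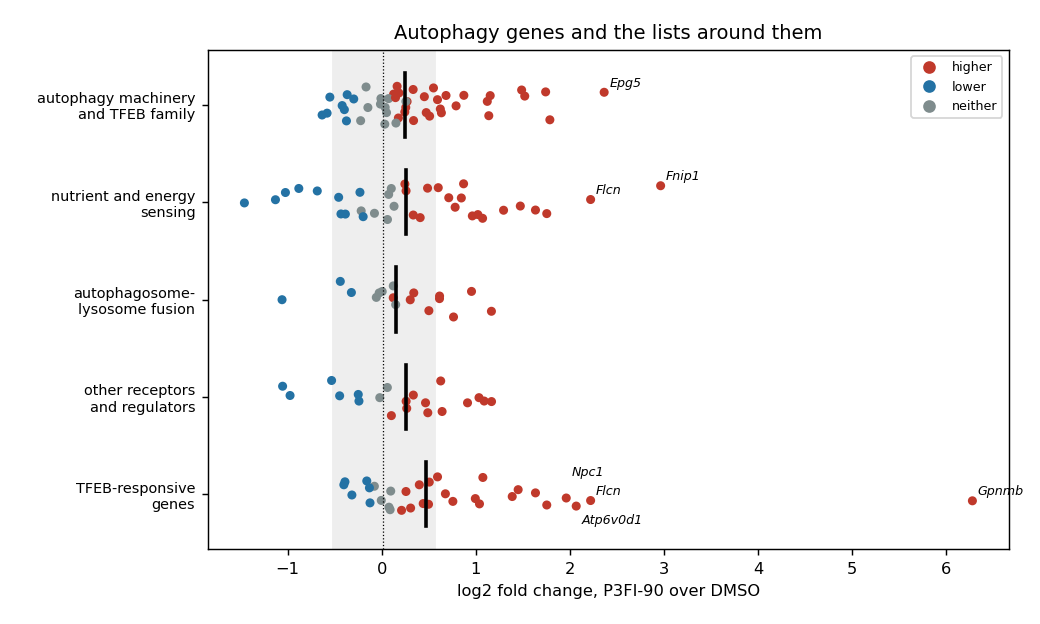
Log2 fold change (horizontal axis, P3FI-90 over DMSO, n = 3 libraries per group) of every tested gene of the 47 members and of the 4 other pathway lists; points are genes, coloured by call, the short lines are the medians of the lists, the dotted line is the median of all genes tested and the grey band runs between their lower and upper quartiles, −0.52 and 0.57. The genes known to respond to TFEB have the highest median, 0.47, and Gpnmb lies far to the right of the others at 6.28.

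TFEB, TFE3 and MITF bind E-boxes, and CACGTG is a palindromic form of the E-box. RefSeq promoters on GRCm38.p6, from 250 bases before to 50 bases after a start site, were given for 39 of the 47 members, with 51 windows in all. CACGTG, which reads the same on both strands, was found in 5 of the 39 members (12.8%), beside 8.09% of the 27025 genes in the promoter table. It was found in 5 of the 51 member windows (9.8%), beside 7.15% of all 32851 windows. The longer CLEAR palindrome, which is CACGTG with GT before it and AC after it and so always contains CACGTG, was in 0 of the 51 member windows and in 0.326% of all windows. The sites of the 5 members are shown because they hold the matches, and which factors bind them was not tested. Capitals mark the CACGTG.
Atg14: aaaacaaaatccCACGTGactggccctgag
Rubcn: cgcctagcacatCACGTGtacccaggttag
Atg3, upstream match: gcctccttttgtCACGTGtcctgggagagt
Atg3, downstream match: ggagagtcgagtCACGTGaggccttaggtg
Atg7: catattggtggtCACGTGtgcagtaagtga
Atg5: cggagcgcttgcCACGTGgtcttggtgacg

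These stretches lie at chr14:47568418-47568447 on the minus strand (Atg14), chr16:32868437-32868466 on the minus strand (Rubcn), chr16:45158723-45158752 and chr16:45158746-45158775 on the plus strand (Atg3), chr6:114670952-114670981 on the plus strand (Atg7) and chr10:44268313-44268342 on the plus strand (Atg5). The first base of the match lay 1 base before the start site in Atg14, 88 before it in Rubcn, 94 and 71 in Atg3, 132 in Atg7 and 14 in Atg5. All 5 genes were called higher, with log2 fold changes of 0.25 for Atg5, 0.34 for Atg7, 0.47 for Atg3, 0.62 for Rubcn and 1.15 for Atg14. The share called higher was 59.6% over all members and 39.9% over all genes tested, and with so few genes nothing is read from this count. These letters were not in the windows given for Uvrag, Optn, Sqstm1, Nbr1, Atg2b and Mitf, and Epg5 had no window.

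In the list of genes known to respond to TFEB, CACGTG was in 14 of the 27 genes with a window (51.9%). Such genes are known in part through this motif, so that the share is a property of the list. In the other lists it was in 8 of 35 sensing genes (22.9%), 2 of 13 fusion genes (15.4%) and 4 of 18 receptor genes (22.2%). The 4 lists held 27 different genes with a match, of which 15 were called higher, 5 lower (Lamtor4, Ctsl, Vps16, Ctsa and Hif1a) and 5 neither, and 2 were not tested. Over all genes tested, 39.9% were called higher and 39.4% lower. In the 4 lists themselves, 52.9% to 65.6% of the tested genes were higher and 17.6% to 30% lower. Nothing particular to genes with a match is therefore read from this count. The matches of the genes called with a change of more than 1 on the log2 scale in either direction are shown for comparison with those of the members.
Fnip1: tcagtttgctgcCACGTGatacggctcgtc
Atp6v0d1: ccctactgcggtCACGTGagacgcggtgcg
Mcoln1, upstream match: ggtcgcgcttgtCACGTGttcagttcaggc
Mcoln1, downstream match: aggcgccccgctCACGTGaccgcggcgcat
Rragc: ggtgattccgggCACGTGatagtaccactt
Retreg1: aagggctgctgtCACGTGcagcagcattat
Lamtor4, upstream match: gcagaaagttaaCACGTGaacagcttttca
Lamtor4, downstream match: tgaacagcttttCACGTGtaaaccaaacca

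On GRCm38.p6 they lie at chr11:54438092-54438121 on the plus strand (Fnip1), chr8:105566050-105566079 on the minus strand (Atp6v0d1, a subunit gene of the lysosomal proton pump), chr8:3500436-3500465 and chr8:3500462-3500491 on the plus strand (Mcoln1, the lysosomal calcium channel gene), chr4:123917309-123917338 on the plus strand (Rragc, the gene of the RagC GTPase), chr15:25942479-25942508 on the plus strand (Retreg1), and chr5:138255350-138255379 and chr5:138255366-138255395 on the plus strand (Lamtor4, a subunit gene of the Ragulator complex that anchors the Rag GTPases). Their log2 fold changes were 2.96 for Fnip1, 2.07 for Atp6v0d1, 1.64 for Mcoln1, 1.47 for Rragc, 1.09 for Retreg1 and −1.02 for Lamtor4. A match describes letters in a window and not binding, which was not measured here.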

How the data were processed

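RNA was extracted with TRIzol, and libraries from 3 DMSO and 3 P3FI-90 samples were made with an Illumina mRNA kit and sequenced on a NovaSeq 6000. The authors deposited whole-number counts per gene without normalization. The submitters' processing notes name CASAVA, HISAT2, StringTie and GRCm39. The annotation, the way counts were obtained and the strandedness are not given in the sources used here. Of 22401 rows, 296 carried no gene identifier and held 0.483% to 0.556% of the counts, and they were left out of library sizes and tests. Other library totals were 31327094 to 37395732.

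Genes were filtered with filterByExpr and scaled by TMM in edgeR 4.0.16 (R 4.3.3), and the groups were compared with its quasi-likelihood test, p-values being adjusted by Benjamini-Hochberg for the 12288 genes fitted, with adjusted p under 0.05 as the call. The study's methods name limma, which was run as an alternative (limma-voom, limma 3.58.1), as was DESeq2 1.42.0, along with other scalings, other filters, a replicate block and leaving out each library. Normalized counts are counts divided by the effective library size relative to its mean. Levels per kilobase and shared exons or windows of 50 bases used merged exons of GENCODE M21 (GRCm38), matched by identifier. Because the builds differ, coordinates are given only for stretches of RefSeq promoters, on GRCm38.p6. Ratios used raw counts plus 0.5. The procedure was tested on simulated data in which a small part of the genes changed, equally in both directions. That setting does not test the scaling between libraries where most genes are called.

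The members, the other lists and the tests were chosen with earlier results of these data known. Every library is given for the TFEB and ATG8 families, Sqstm1, and the 5 largest rises and 5 largest falls among called members; each other list names its 2 largest rises and 2 largest falls. Mcoln1, Atp6v0d1, Rragc and the lower genes with a match were named for their promoter matches after their values were seen.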

Additional observations from a re-analysis of the deposited data

How the results depend on the processing

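The 28 higher and 8 lower members stayed within 26 to 35 and 7 to 9 under the 14 alternatives. Scaling by DESeq2 size factors, DESeq2's own test, limma-voom and a minimum of 10 counts in every library each left the counts at 28 and 8. The call was the same under all 14 for 35 members, and of the other 12 it changed under total counts for 8 and under other alternatives for 4 (Atg16l1, Pik3r4, Atg9b and Atg4c). The members' median log2 fold change was 0.46 with total counts, 0.21 with upper-quartile scaling, 0.18 to 0.27 with 1 library left out, and 0.12 with the length trend removed, which was chosen after seeing the data. With total counts the sign turned for Ambra1 (0.20) and Atg4d (0.21), which were then called higher, and for Tfeb (0.07) and Atg9b (0.05), which were not called. With upper-quartile scaling the uncalled values of Becn1 and Vmp1 fell just below 0. The uncalled values of Ambra1, Atg4d and Calcoco1, all near 0, also crossed it under a stricter filter, another count model or the loss of a library. With the length trend removed the sign turned for 4 called members, Rb1cc1 (−0.12), Pik3r4 (−0.14), Atg16l1 (−0.19) and Tax1bp1 (−0.18), and for the uncalled Becn1 (−0.17), Atg16l2 (−0.12) and Calcoco1 (−0.06). The cause of these moves was not tested beyond the alternatives themselves.

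The groups share replicate numbers, but samples with the same number did not deviate together (correlations −0.0214, 0.015 and 0.00491), so the numbers were not taken as pairs. With a replicate block, 28 members were higher and 8 lower with a median of 0.25 (0.245), no member's call changed, and over all genes 4802 were higher and 4722 lower, in place of 4908 and 4841. With 3 libraries per group and a common biological coefficient of variation of 0.0648, the standard error on the log2 scale was 0.030 for Sqstm1, the most abundant member, and 0.25 for Atg10, the least abundant.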
